A study of Mus musculus with 16 samples.

Results

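Polycomb repressive complex 2 (PRC2) was described here through the transcripts of 10 subunit genes, the core genes Ezh1, Ezh2, Eed, Suz12 and Rbbp4 and the accessory genes Jarid2, Mtf2, Phf19, Phf1 and Aebp2. Every probe set of the array table annotated to one of these symbols alone was taken, which gave 34 probe sets for 10 of the 18193 genes with a probe set of their own. The table held 45037 probe sets beside 64 controls, and 0 further probe sets carried a member's symbol together with another gene's. The number per gene ran from 1 for Ezh2 and Phf1 to 6 for Suz12 and Mtf2. Probe sets were taken by annotation alone, while the genes themselves were chosen with earlier results of these data known.

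The samples were mouse embryonic stem cells of a 129/B6 hybrid background, from a pair of clones numbered 10 and 15. In the OHT+ groups, labelled Rybp-KO, Rybp was removed with 800 nM 4-hydroxytamoxifen (OHT) for 24 hours, and the OHT- groups, labelled wild-type control, were the same clones without it. RNA was collected at day 4 and day 12, so that the 16 arrays form 4 groups of 4, each with arrays numbered 1 and 2 from both clones. All groups grew in serum with a leukaemia inhibitory factor supplement, on irradiated fibroblast feeders or on gelatin, and the labels do not say which array came from which. No control cells given OHT are among the samples, so an effect of OHT itself and one of Rybp removal cannot be told apart, and the labels name neither the allele nor the enzyme that OHT activates. Nothing says that arrays of 1 group came from separate cultures, so the spread that p-values rest on here may be technical.

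PRC2 places methyl groups on lysine 27 of histone H3. Ezh1 and Ezh2 are alternative catalytic subunits, Eed binds the finished mark and stimulates the enzyme, Suz12 is the scaffold on which the complex assembles, and Rbbp4 is a histone chaperone that other chromatin complexes share. The accessory subunits define variant forms: Phf1, Mtf2 and Phf19 are the Polycomb-like proteins of PRC2.1, which carry the complex to CpG-rich DNA, while Jarid2 and Aebp2 mark PRC2.2, whose recruitment involves the H2AK119 ubiquitin placed by PRC1. Rybp, the targeted gene, is a subunit of the variant PRC1 complexes that place much of that ubiquitin, and it was named for binding Ring1 proteins and the transcription factor Yy1.

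Promoter sequence was available for all 10 genes in RefSeq (GRCm38.p6), as 14 windows of the 250 bases before an annotated start. Those of 5 genes are printed 5′ to 3′ on the sense strand. Ezh1 and Mtf2 are shown because they had the lowest and the highest estimate at day 12, Ezh2 because it is the alternative to Ezh1, and Jarid2 and Phf19 because they hold a Yy1 motif. Capitals mark matches, on either strand, to an E2F motif (TTTCCCGC, TTTCGCGC, TTTGCCGC or TTTGGCGC), to a Yy1 core motif (GCCATNTT) and to the CCAAT box (CCAAT). No match overlapped another in the printed windows. The Ezh1 window is chr11:101226464-101226713 on the minus strand, that of Ezh2 chr6:47595031-47595280 on the minus strand, and that of Mtf2 chr5:108065424-108065673 on the plus strand, the first of its annotated starts. The Jarid2 window is chr13:44730524-44730773 on the plus strand, again the first of its starts, and that of Phf19 chr2:34913977-34914226 on the minus strand.
Ezh1: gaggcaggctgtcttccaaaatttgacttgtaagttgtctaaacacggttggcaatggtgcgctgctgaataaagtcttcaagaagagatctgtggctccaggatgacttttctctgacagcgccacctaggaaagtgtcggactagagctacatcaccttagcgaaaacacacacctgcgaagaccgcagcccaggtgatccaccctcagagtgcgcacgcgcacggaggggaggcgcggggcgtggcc
Ezh2: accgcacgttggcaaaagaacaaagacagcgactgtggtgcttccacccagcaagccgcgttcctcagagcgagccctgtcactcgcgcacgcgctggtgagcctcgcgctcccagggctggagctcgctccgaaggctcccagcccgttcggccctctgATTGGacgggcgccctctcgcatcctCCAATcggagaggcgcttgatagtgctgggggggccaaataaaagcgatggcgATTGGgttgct
Mtf2: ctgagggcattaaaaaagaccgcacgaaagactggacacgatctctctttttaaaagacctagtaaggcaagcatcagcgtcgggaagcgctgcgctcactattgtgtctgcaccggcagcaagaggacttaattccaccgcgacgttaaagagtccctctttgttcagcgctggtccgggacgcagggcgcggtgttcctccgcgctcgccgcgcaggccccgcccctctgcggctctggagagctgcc
Jarid2: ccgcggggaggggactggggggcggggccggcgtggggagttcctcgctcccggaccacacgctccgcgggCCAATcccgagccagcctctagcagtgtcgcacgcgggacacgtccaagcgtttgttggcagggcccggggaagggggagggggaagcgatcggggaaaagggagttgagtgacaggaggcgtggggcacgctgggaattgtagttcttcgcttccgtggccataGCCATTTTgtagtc
Phf19: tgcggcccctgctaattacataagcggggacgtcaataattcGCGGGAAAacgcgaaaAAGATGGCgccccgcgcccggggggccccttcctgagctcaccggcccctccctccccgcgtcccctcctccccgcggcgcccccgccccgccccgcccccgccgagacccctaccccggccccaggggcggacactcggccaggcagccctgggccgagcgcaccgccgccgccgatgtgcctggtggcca

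The printed Ezh1 and Mtf2 windows held none of the 3 motifs, and the Ezh2 window held 3 CCAAT boxes and no other match. The E2F motif was found in the windows of Suz12 and Phf19, 2 of 14 windows, against 1.86% of all 32851 windows in the table. The Yy1 motif was found in those of Jarid2, where it began 14 bases before the start, and Phf19, where it began 192 bases before it, against 3.91% of all windows. A CCAAT box stood in 6 of 14 windows, against 33.8% of all. The member windows held a median of 22.5 CpG dinucleotides, from 1 in a window of Aebp2 to 37 in that of Suz12, against a median of 6 over all windows. These are matches of letters, with no measurement of binding.

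The arrays carried the labelled depletion in 1 of the probe sets that bear the symbol Rybp, both of which also carry that of its pseudogene. On 1421111_at the OHT+ arrays read 84.9 to 125 at day 4 and 109 to 256 at day 12, against 2047 to 3319 and 2749 to 3434 on OHT- arrays (on the log2 scale -4.81 and -4.09, with limma adjusted p = 8.43e-07 and 4.1e-06). The other, 1428219_at, was higher on OHT+ arrays without passing the test (2.82 and 2.95, limma adjusted p = 0.256 and 0.0902), and whether its probes lie in the deleted part is not given in the sources used here. All 10 ES cell markers lay above the table's median intensity on every array, and 0 passed between OHT+ and OHT- cells. With the 8 pairs of the same clone, day and number as a block 1 of them, Utf1, passed at day 12 (-0.82 on the log2 scale, limma adjusted p = 0.018, and 0.0587 without the block). An alternative chosen after the data were seen had the array number within each day as a term. It called 0.575% of all probe sets at day 4 and 5.01% at day 12. In that fit Utf1 and Klf4 passed at day 12 (-0.82 and 0.60, limma adjusted p = 0.00164 and 0.0396). So did the endoderm marker Pdgfra at day 12 (0.0432) and the fibroblast marker Thy1 on days 4 and 12 (0.0164 and 0.036). The summed intensity of 10 fibroblast markers overlapped between all groups (4400.4 to 6981). That of 7 primitive endoderm markers ran from 467 to 1097 at day 4, from 3335 to 4949 in OHT- cells at day 12 and from 5193 to 9371 in OHT+ cells at day 12. Of the 7, Gata6 and Dab2 rose from day 4 to day 12 in OHT- cells, and 1 of the 7 lay above the table's median intensity on every array. Without the block or the number term, 0 of the 7 passed the test of OHT+ against OHT- at day 12, though the summed levels did not overlap. Their part in the day 12 values below was not tested.

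No PRC2 subunit passed the test between OHT+ and OHT- cells on either day. The limma fit, adjusted over all 45037 probe sets, called 0 of the 34 at day 4, where it called 0.242% of all, and 0 of the 34 at day 12, where it called 1.21% of all (546 probe sets, or 1034 with each pair of arrays of the same clone, day and number as a block, where the members still counted 0). At an unadjusted p under 0.05 the counts were 1 of 34 at day 4, against 6.79% of all probe sets, and 5 of 34 at day 12, against 11% of all. Over the brightest probe set of each gene the log2 fold changes lay between -0.42 and 0.21 at day 4 and between -0.64 and 0.46 at day 12. The median over the 34 was -0.01 at day 4 and -0.09 at day 12, against -0.01 and -0.02 over all probe sets. By the brightest probe set of each gene it was -0.02 and -0.12, against 0.01 and 0.01 over all genes. The estimate lay above 0 for 5 of the 10 genes at day 4 and for 1 at day 12.

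A missed threshold does not show equal levels. For the brightest probe set of each of the 10 genes the 95% interval of the log2 fold change lay within 1 of 0 on both days, so changes of a full log2 unit were outside these intervals, while smaller ones were inside many of them. Of all 34 probe sets, 26 had such an interval at day 4 and 23 at day 12. These intervals take no account of the pairing of arrays, and with the pairs as a block the counts were 30 and 29 of 34, and 10 of 10 for the brightest. The 6 probe sets with a mean below the table's median were all among the rest on both days in the fit without the block. The test of a different effect between the days called no member (0 of 34, with 0% of all probe sets called and 1 of 34 at an unadjusted p under 0.05). Since it called no probe set at all, this is not particular to the members and does not show equal effects. The 95% interval of that difference lay within 1 of 0 for 20 of 34. Since these are bulk samples, fewer cells of a type and less RNA per cell cannot be told apart.

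**Figure D1:**
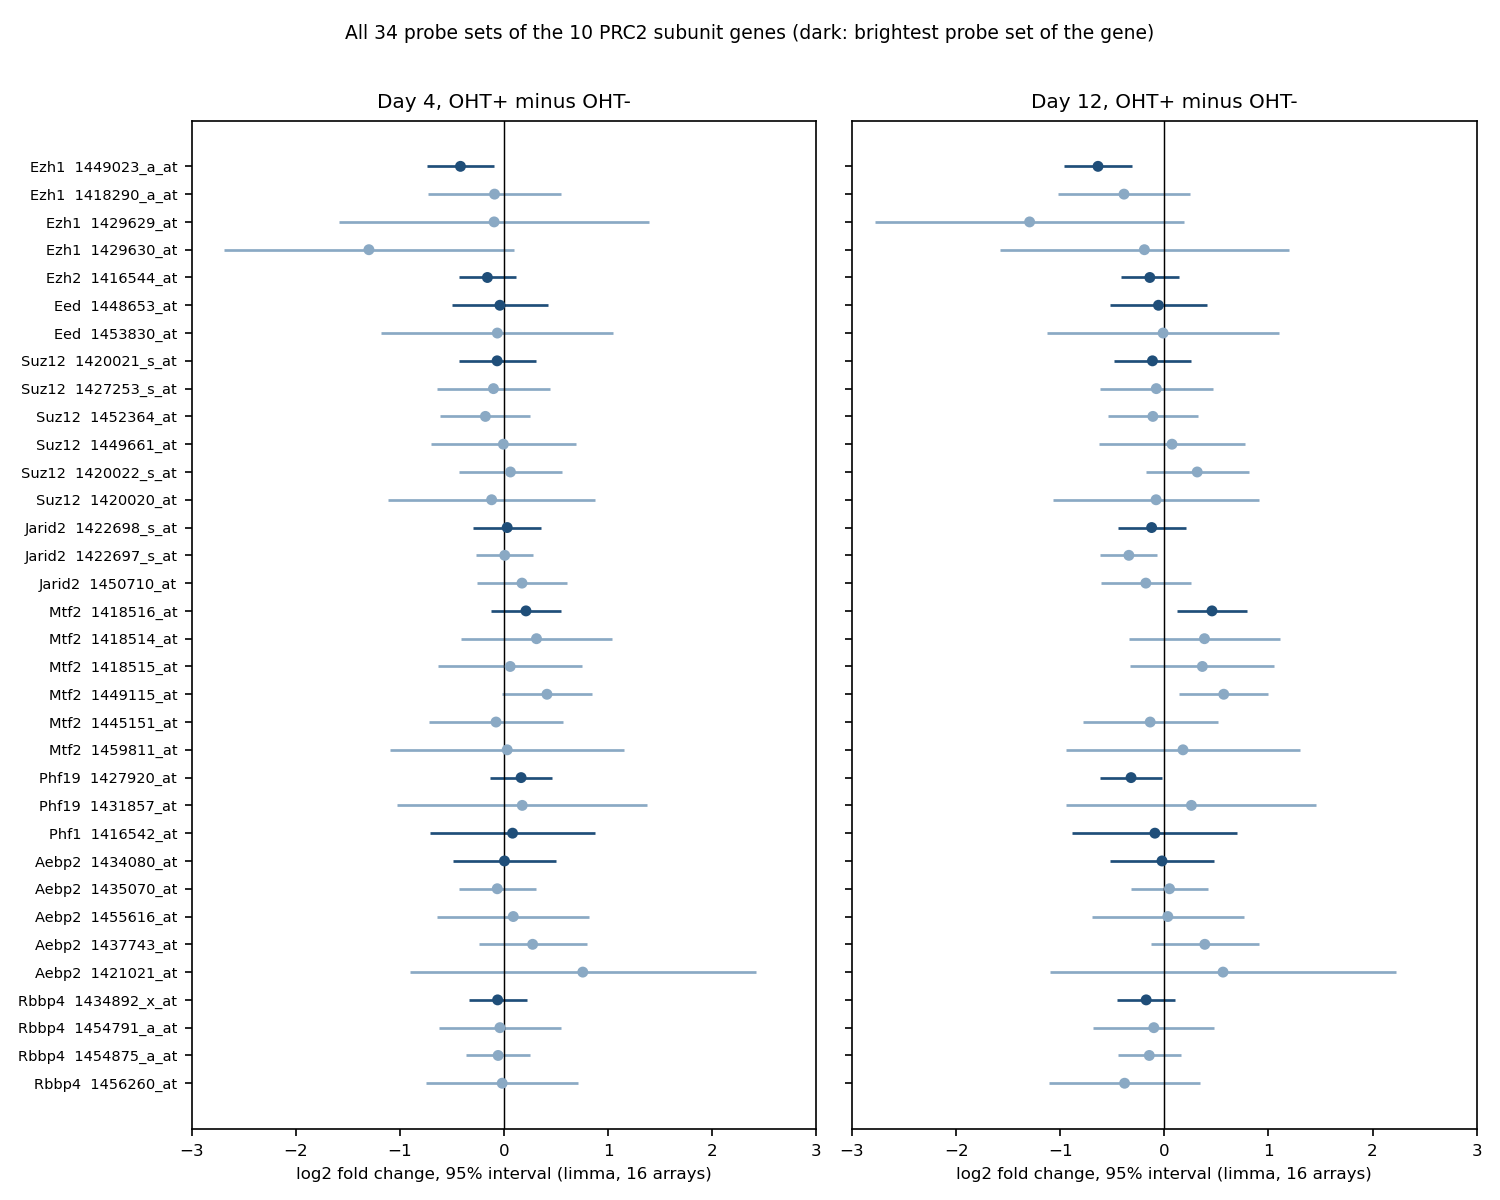
Log2 fold change of OHT+ against OHT- cells with its 95% interval from the limma fit to 16 arrays, for all 34 probe sets at day 4 (left) and day 12 (right), with the brightest probe set of each gene in dark blue. None passed the adjusted threshold. The interval of 1449023_a_at of Ezh1 lies to the left of 0 on both days. At day 12 those of 1427920_at of Phf19 and 1422697_s_at of Jarid2 also lie to the left. Those of 1418516_at and 1449115_at of Mtf2 lie to the right at day 12.

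Ezh1, the catalytic subunit better known from non-dividing cells, had the lowest estimate among the 10 genes on both days. On its brightest probe set, 1449023_a_at, the OHT- arrays of day 4 read 997 and 962 in clone 10 and 1119.6 and 1027 in clone 15, and the OHT+ arrays 741 and 797 in clone 10 and 679 and 862 in clone 15. At day 12 the OHT- arrays read 889, 979.5, 1078 and 1003, and the OHT+ arrays 724, 468, 665 and 714, in the same order. The groups did not overlap on either day, and the OHT+ array was the lower one in 8 of 8 pairs of the same clone, day and number. The means were 1027 ± 67.4 (SD, n = 4) against 769.6 ± 77.9 at day 4 and 987 ± 78 against 643 ± 119.4 at day 12. As log2 fold changes these came to -0.42 (95% interval -0.74 to -0.09) and -0.64 (-0.96 to -0.31), and neither passed (limma adjusted p = 0.519 and 0.0687).

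The day 12 value of Ezh1 lay close to the threshold, and the call depended on the processing. It passed in 5 of 25 alternative fits, with limma adjusted p from 0.0142 to 0.228 over all 25, and its estimate kept its sign in all of them. Of the 5 that called it, 4 were alternatives chosen with the design, namely those with 1 probe set per gene (adjusted p = 0.0249), without dim probe sets (0.0332), with low values raised to a floor (0.0142) and with a trended, robust variance (0.0225). The remaining one, with the array number within each day as a term (0.0256), was chosen after the data were seen. That fit called 5.01% of all probe sets at day 12. Ezh1 did not pass with the 8 pairs as blocks, nor on leaving out any 1 array. Ordered by mean, Ezh1 was highest in OHT- cells at day 4, then OHT- at day 12, OHT+ at day 4 and OHT+ at day 12. The OHT- groups of both days overlapped (limma adjusted p = 0.926), as did the OHT+ groups (0.489).

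The other 3 Ezh1 probe sets did not separate the groups. On 1418290_a_at the OHT+ array was lower in 3 of 4 pairs at day 4 and 4 of 4 at day 12, and the estimates were -0.09 and -0.39 (limma adjusted p = 0.999 and 0.717). Both remaining ones, 1429629_at and 1429630_at, had means below the table's median, and their estimates ran from -0.10 to -1.30 with 95% intervals that all held 0. Their values depended on single arrays and on low readings. On 1429629_at the reading was 3.6 in OHT+ cells of clone 15 at day 12, against 34.9 to 53 on the other 3 arrays of that group, and its day 12 estimate of -1.29 was -0.43 without that array. The day 4 estimate of 1429630_at, -1.30, was -0.24 with low values raised to a floor and -1.95 without the OHT+ array of clone 10 numbered 2.

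Ezh2, the catalytic subunit of dividing cells, was measured by 1 probe set, 1416544_at. At day 4 the OHT- arrays read 5728 and 5808 in clone 10 and 7175 and 5934 in clone 15, against 5307, 5674, 5527 and 5456 on the OHT+ arrays. The groups did not overlap, though the highest OHT+ array and the lowest OHT- array were close. At day 12 the OHT- arrays read 5211, 5274, 4763 and 5723 and the OHT+ arrays 4318, 5395, 4443 and 4917, and the groups overlapped. The log2 fold change was -0.16 (95% interval -0.44 to 0.12) at day 4 and -0.14 (-0.42 to 0.14) at day 12, with limma adjusted p = 0.962 and 0.781. Ordered by mean, Ezh2 was highest in OHT- cells at day 4, then in OHT+ at day 4, OHT- at day 12 and OHT+ at day 12, and neither OHT nor the day moved it past the threshold (limma adjusted p = 0.532 in OHT- and 0.548 in OHT+ cells between the days).

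**Figure D2:**
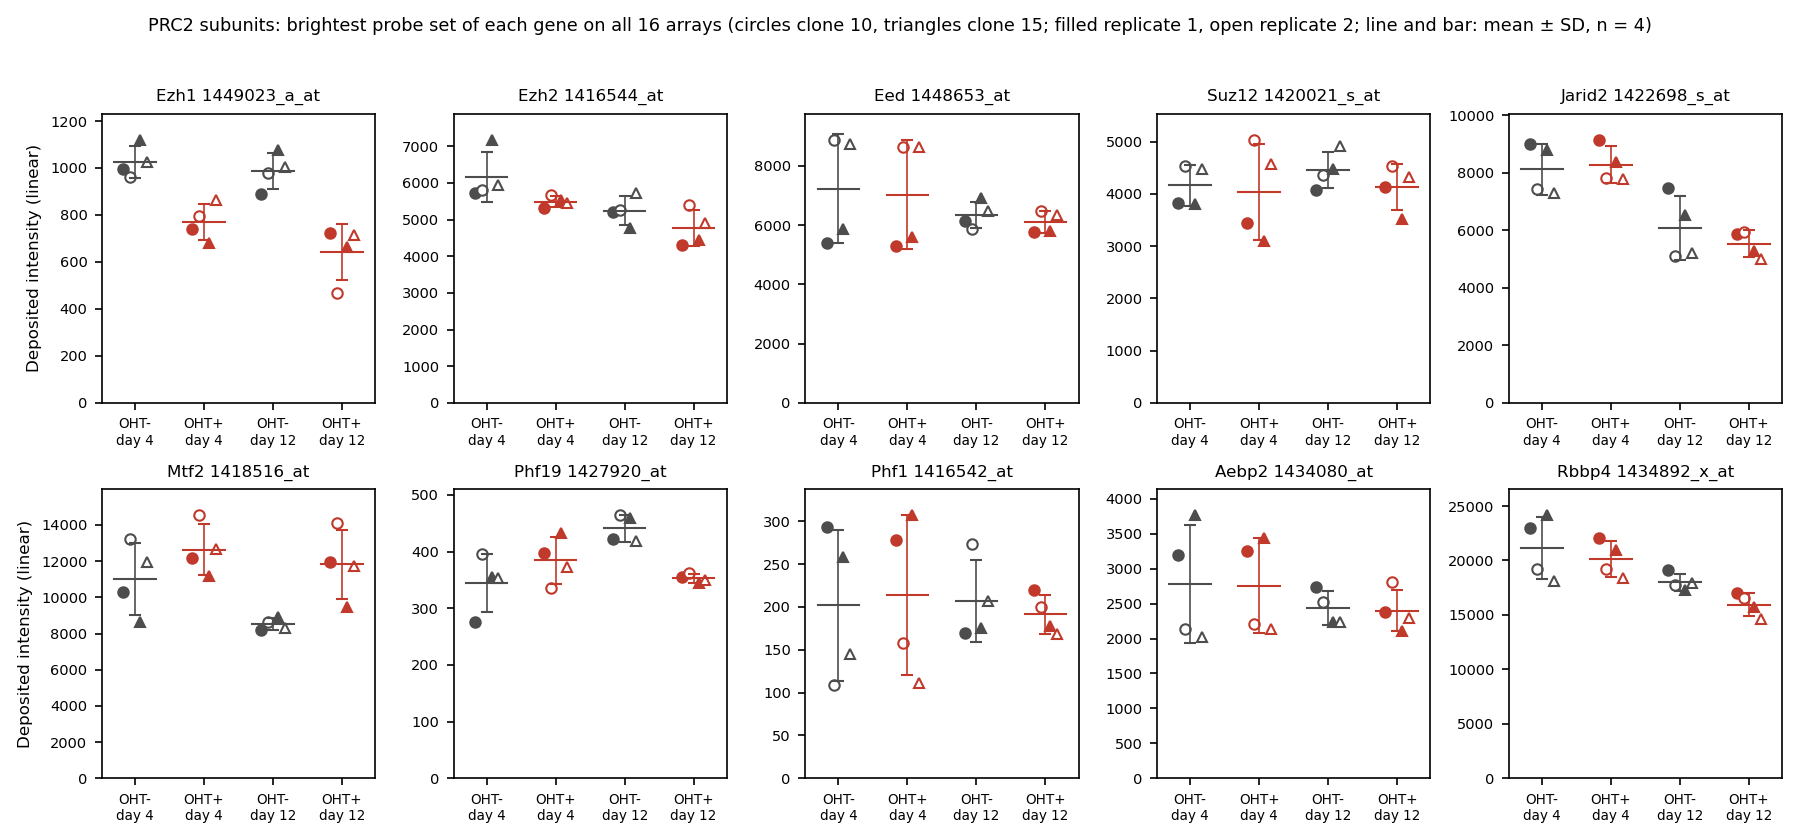
Deposited linear intensity of the brightest probe set of each gene on all 16 arrays, by group, with the mean and SD of 4 arrays; circles are clone 10, triangles clone 15, filled points arrays numbered 1 and open points those numbered 2, and each axis starts at 0 and has its own scale. The Ezh1 groups stand apart on both days. At day 4 the filled and open points of Eed, Suz12, Jarid2, Phf1, Aebp2 and Rbbp4 lie apart in OHT- and OHT+ cells alike.

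Eed and Suz12, which with the catalytic subunit make up the enzymatic core, lay close to 0. The brightest probe set of Eed gave log2 fold changes of -0.04 (95% interval -0.50 to 0.42) at day 4 and -0.06 (-0.52 to 0.41) at day 12. That of Suz12, 1420021_s_at, gave -0.07 (-0.44 to 0.30) and -0.11 (-0.48 to 0.26). All of these had limma adjusted p between 0.889 and 0.999. The 6 Suz12 probe sets ran from -0.18 to 0.06 at day 4 and from -0.11 to 0.32 at day 12, and none had groups that did not overlap.

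Rbbp4 is also part of nucleosome remodelling, histone deacetylase and chromatin assembly complexes. At day 12 the groups did not overlap on 1434892_x_at, with 19102, 17709, 17268 and 17893 on OHT- arrays and 16974, 16515, 15685 and 14654 on OHT+ arrays. Nor did they on 1454875_a_at, with 7702, 7378, 7261 and 7496 against 6187, 7164.5, 6513 and 7175. Both differences were small, with log2 fold changes of -0.17 (95% interval -0.45 to 0.10) and -0.14 (-0.45 to 0.16), and neither passed (limma adjusted p = 0.707 and 0.798). The suffix of 1434892_x_at marks probes that can match further transcripts, so its values are uncertain for Rbbp4 alone. On 1454875_a_at the OHT+ array was the lower one in 8 of 8 pairs. The other Rbbp4 probe sets, 1454791_a_at and 1456260_at, overlapped between the groups on both days.

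Mtf2, a Polycomb-like subunit and a main accessory form in ES cells, had the highest estimate among the 10 genes on both days. At day 12 its brightest probe set, 1418516_at, read 8221 and 8655 in clone 10 and 8936 and 8288 in clone 15 on OHT- arrays, and 11979, 14109, 9448 and 11736 on OHT+ arrays. The groups did not overlap, and the spread was wider among the OHT+ arrays (11818 ± 1906 against 8525 ± 334, SD, n = 4). At day 4 it read 10268, 13215, 8615 and 11936 on OHT- arrays and 12170.3, 14531, 11174.5 and 12646 on OHT+ arrays, with overlap. This gave log2 fold changes of 0.21 (95% interval -0.13 to 0.55) and, at day 12, 0.46 (0.12 to 0.79), neither past the threshold (limma adjusted p = 0.937 and 0.253).

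Of the other 5 Mtf2 probe sets, 3 leaned the same way. On 1449115_at the day 12 arrays read 2112, 2476, 1756 and 2371 in OHT- and 2836, 4356, 2401 and 3570 in OHT+ cells, with overlap and an estimate of 0.57 on the log2 scale (95% interval 0.14 to 1.0, limma adjusted p = 0.268). On 1418514_at they read 5468, 4750, 5420 and 5370 against 6943, 6933, 6728 and 6798, with no overlap and an estimate of 0.39 (limma adjusted p = 0.767). The groups were also apart on 1418515_at at day 12 (0.36, limma adjusted p = 0.769). The OHT+ array was the higher one in 8 of 8 pairs on 1418516_at, 1418514_at and 1449115_at. The dimmer 1445151_at and 1459811_at did not share this, with day 12 estimates of -0.14 and 0.18 and pairs on both sides of 0.

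No Mtf2 probe set passed in any alternative chosen with the design. With the array number within each day as a term, the alternative chosen after the data were seen, 1418516_at, 1418514_at and 1449115_at passed at day 12 (limma adjusted p = 0.0348, 0.0312 and 0.0107) and 1418515_at did not (0.0778). That fit called 5.01% of all probe sets at day 12. For those that passed, the limma adjusted p ran up to 0.459, 0.882 and 0.501 over the other alternatives. Ordered by mean, 1418516_at was highest in OHT+ cells at day 4, then OHT+ at day 12, OHT- at day 4 and OHT- at day 12. The OHT+ groups of both days overlapped (limma adjusted p = 0.852), and the OHT- groups did not differ past the threshold (0.413).

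**Figure D3:**
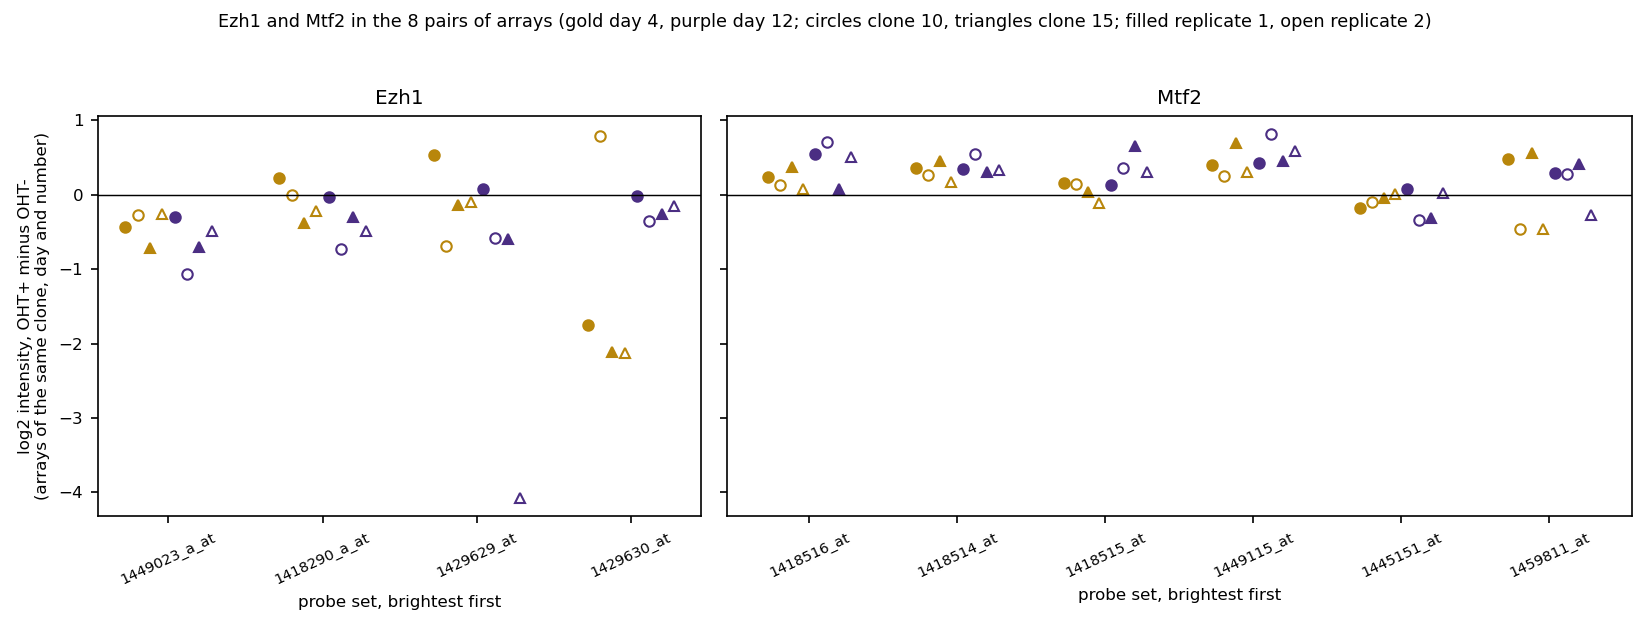
Difference of log2 intensity between the OHT+ and the OHT- array of the same clone, day and number, for the 4 probe sets of Ezh1 and the 6 of Mtf2; gold is day 4, purple day 12, circles clone 10, triangles clone 15, filled points number 1 and open points number 2. All 8 points lie below 0 for 1449023_a_at and above 0 for 1418516_at, 1418514_at and 1449115_at, while the dimmer probe sets of both genes have points on both sides or spread widely.

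These separations are set against what the whole table shows. All OHT+ arrays lay below all OHT- arrays for 2 of 34 member probe sets at day 4 (those of Ezh1 and Ezh2 named above), against 1.92% of all probe sets, and above them for 0, against 2.35% of all. At day 12 they lay below for 4 (1 of Ezh1, 1 of Phf19 and 2 of Rbbp4), against 4.1% of all, and above for 3, each of Mtf2, against 5.3% of all. The OHT+ array was lower in all 8 pairs for 2 of 34, against 3.91% of all, and higher for 4 of 34, against 4.2% of all. Probe sets of 1 gene share its transcript, so the 3 of Mtf2 are not separate cases.

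Both other Polycomb-like genes were dimmer. Phf19 read 423, 464, 459.5 and 418 on the OHT- arrays of day 12 on 1427920_at and 356, 362, 344 and 350.4 on the OHT+ arrays, with no overlap. The day 12 estimate was -0.32 on the log2 scale (95% interval -0.62 to -0.02, limma adjusted p = 0.408). At day 4 it was 0.16 (-0.13 to 0.46), with overlapping groups. The difference between the days was -0.48 (-0.90 to -0.06, limma adjusted p = 1.0), and its limma p before adjustment was 0.0276. Phf1, on its single probe set, gave 0.08 at day 4 (95% interval -0.71 to 0.87) and -0.09 at day 12 (-0.88 to 0.70).

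The PRC2.2 subunits showed no separation of the groups. Jarid2, which binds ubiquitinated H2A and nucleates the complex in ES cells, was measured by 3 probe sets. On 1422697_s_at the OHT- arrays of day 12 read 6764, 5906.5, 5790 and 5274 and the OHT+ arrays 4808, 5344, 4326.5 and 4267, so that only the lowest OHT- array lay among them. The OHT+ array was lower in 4 of 4 pairs, and the estimate was -0.34 (95% interval -0.62 to -0.07, limma adjusted p = 0.315), against 0.01 at day 4. Both remaining Jarid2 probe sets gave -0.12 and -0.18 at day 12. For Aebp2, a zinc finger subunit that strengthens nucleosome binding, the brightest probe set gave 0.00 at day 4 and -0.02 at day 12. Its 1437743_at was higher on the OHT+ array in 8 of 8 pairs, with overlapping groups and estimates of 0.27 and 0.39 (limma adjusted p = 0.974 and 0.617).

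Between the clones, of the 34 probe sets 0 differed between clone 15 and clone 10 in OHT- cells, where the fit called 0.0355% of all, and 0 differed in their OHT effect, where it called 0% of all; the count at an unadjusted p under 0.05 was 0 in both. With 2 arrays of each clone in a group this leaves room for differences, since the 95% interval of the difference in OHT effect lay within 1 of 0 on the log2 scale for 16 of 34. The day 12 estimates of some dim probe sets lay far apart: 1429629_at of Ezh1 gave -0.25 in clone 10 against -2.33 in clone 15, and 1421021_at of Aebp2 gave 1.47 and -0.34. For 1449023_a_at of Ezh1 clone 10 gave -0.35 and -0.68 on days 4 and 12, and clone 15 gave -0.49 and -0.59, from 2 arrays a group. For 1418516_at of Mtf2 clone 10 gave 0.19 and 0.62, and clone 15 gave 0.23 and 0.29.

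Between the days, 1 member probe set passed in OHT- cells, against 0.402% of all, and the same one passed in OHT+ cells, against 1.22% of all. It was 1420022_s_at of Suz12. It read 464, 462, 468 and 419 in OHT- cells at day 4 and 213, 119.2, 248 and 168 at day 12, a difference of -1.33 on the log2 scale (95% interval -1.82 to -0.83, limma adjusted p = 0.0278). In OHT+ cells it read 549, 534, 450.5 and 377 at day 4 and 285, 197, 243 and 186 at day 12, a difference of -1.07 (-1.57 to -0.58, limma adjusted p = 0.0430). The days did not overlap in either condition, so this probe set fell from day 4 to day 12 with and without OHT. The 5 other Suz12 probe sets did not pass in either condition. The brighter 3 gave between -0.04 and 0.15 in OHT- cells, while the other 2 had lower means at day 12 in both conditions. On 1449661_at the means were 832 and 509 in OHT- cells and 825 and 529 in OHT+ cells, and on 1420020_at they were 228 and 153, and 227 and 149. On each of these the lower mean came almost wholly from arrays of 1 number. For 1449661_at the means of days 4 and 12 were 1066 and 432 on arrays numbered 1, but 591 and 606 on those numbered 2. For 1420020_at they were 137 and 131 on arrays numbered 1, but 318 and 172 on those numbered 2. A suffix such as _s_at marks probes that can be shared by transcripts.

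The size of that fall changed little when arrays were left out, while the call often did not hold. Over the alternatives the difference ran from -1.51 to -1.10 in OHT- cells and from -1.19 to -0.99 in OHT+ cells. In OHT- cells the call was lost without any 1 of the 8 OHT- arrays except the day 12 array of clone 15 numbered 1 (limma adjusted p 0.0563 to 0.0897). In OHT+ cells it held without that array or without the OHT- day 12 array of clone 10 numbered 2, and was lost without any 1 of the other 14 (0.0566 to 0.122). It held in both conditions without dim probe sets, with raised low values, with an offset and with the trended variance. The summed primitive endoderm markers given above also differed between the days, and their part in this value was not tested. In OHT+ cells Jarid2 1422698_s_at gave -0.58 between the days (limma adjusted p = 0.0894). It passed there with 1 probe set per gene, without dim probe sets, with raised low values and with the trended variance, and the OHT- difference was -0.43 (limma adjusted p = 0.285).

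At day 4 many members differed between the arrays numbered 1 and those numbered 2. Of the 34 probe sets 23, from 8 of the 10 genes, had no overlap between the 4 arrays of each number, against 24.5% of all probe sets, with 13 higher on the arrays numbered 2 and 10 lower. At day 12 the count was 5 of 34, from 3 genes, against 8.28% of all. What the numbers stand for, beyond replicate 1 and 2, is not given in the sources used here.

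Probe sets of 1 gene differed in opposite directions between the numbers. For Mtf2 the 4 day 4 arrays numbered 1 read 9619 to 13963 on 1418514_at and those numbered 2 read 4994 to 6023, while on 1445151_at they read 274 to 311 and 534 to 576. For Rbbp4 they read 6349 to 7180.1 and 3189 to 4389 on 1454791_a_at, but 352 to 422 and 792 to 893 on 1456260_at. Eed read 5282 to 5881 on arrays numbered 1 and 8623 to 8878 on those numbered 2, and Phf1 read 259 to 307 and 109 to 158. Ezh2 and the brightest probe sets of Ezh1 and Phf19 did not separate by number at day 4, with log2 differences of -0.04, 0.07 and 0.02. Every group held 2 arrays of each number. The median size of the log2 difference between the numbers was 0.59 at day 4 and 0.17 at day 12, and the median size of the log2 fold change between OHT+ and OHT- was 0.08 and 0.18.

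**Figure D4:**
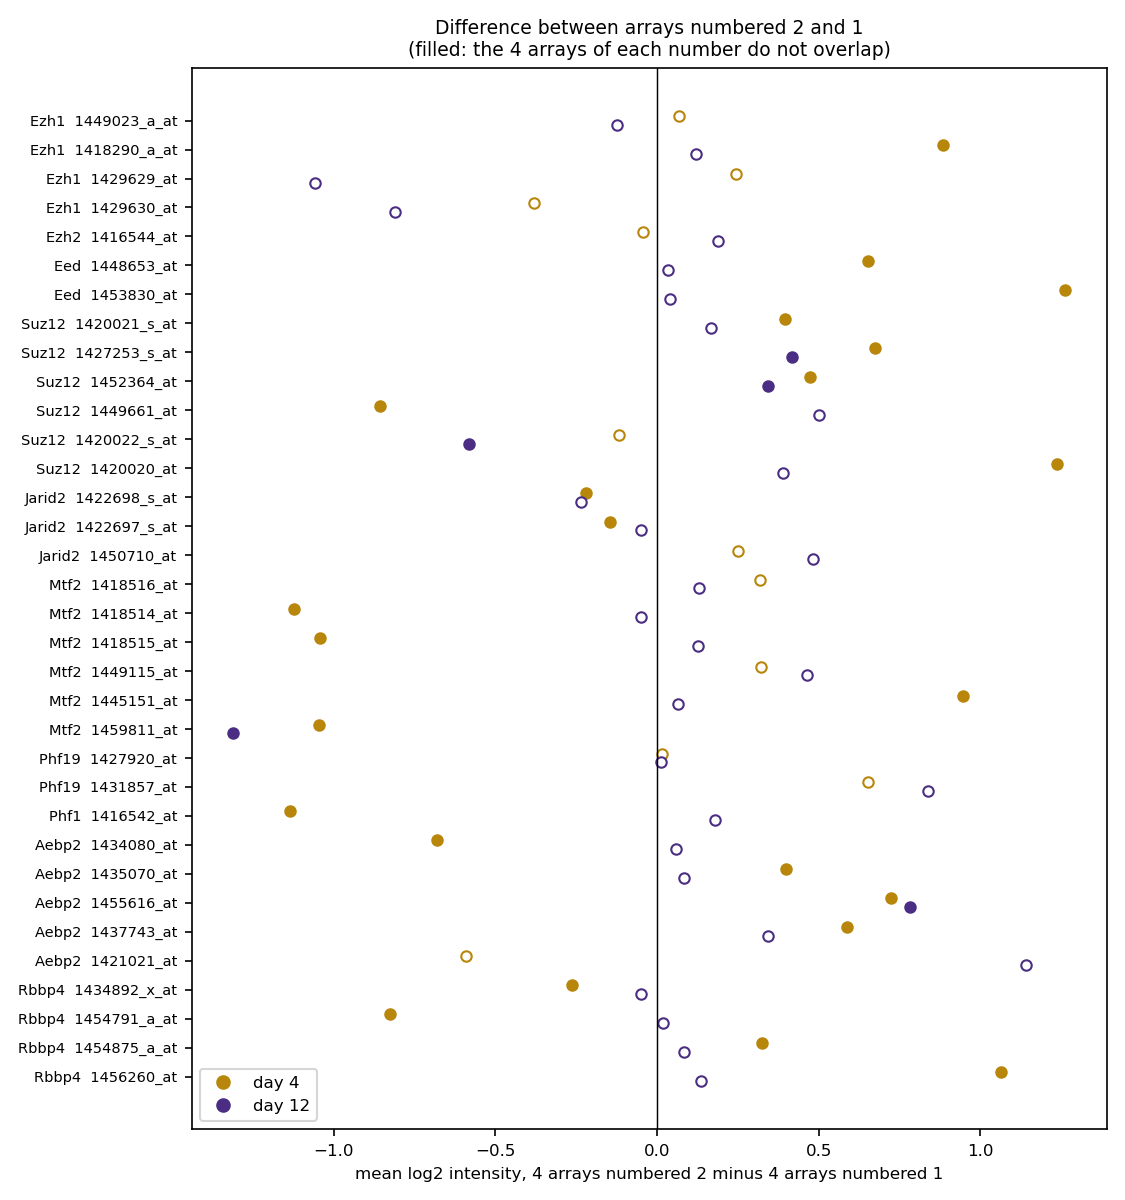
Mean log2 intensity of the 4 arrays numbered 2 minus that of the 4 arrays numbered 1 for each of the 34 probe sets, at day 4 (gold) and day 12 (purple); a filled point marks probe sets whose arrays of the different numbers do not overlap. At day 4, 23 points are filled and lie on both sides of 0, within the same gene for Suz12, Mtf2, Aebp2 and Rbbp4.

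Genes around PRC2 were read from 5 lists, by the brightest probe set of each gene. Among 10 further cofactors, all measured, 1 rose and 1 fell at day 12, where 1.21% of all probe sets passed, and 0 passed at day 4, where 0.242% did, with a median log2 fold change of 0.27 at day 12 against 0.01 over all genes. Ezhip, an inhibitor of PRC2 activity, rose from 82.3 ± 28 to 230 ± 50.9 (SD, n = 4), an increase of 1.52 on the log2 scale (limma adjusted p = 0.0483), with 1.12 at day 4 (0.362). Its OHT- mean at day 12 lay below the table's median intensity of 93. Lcorl, whose locus encodes a PRC2.1 partner, fell from 426 ± 137 to 210 ± 58.9, -1.01 on the log2 scale (limma adjusted p = 0.0278), with -0.57 at day 4 (0.493). Over 25 alternatives the difference of Ezhip ran from 1.28 to 1.75 and that of Lcorl from -1.09 to -0.89. The call of Ezhip held in 12 of 25 (adjusted p 0.0168 to 0.154). Of the fits without 1 array it held in 4, those without the day 4 OHT+ arrays of clone 15 numbered 1 or clone 10 numbered 2, the day 12 OHT- array of clone 10 numbered 2, or the day 12 OHT+ array of clone 15 numbered 2. The call of Lcorl held in 16 of 25 (0.00584 to 0.117) and was lost without any 1 of the 8 day 12 arrays except the OHT+ array of clone 15 numbered 1.

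In the other 4 lists 0 genes passed on either day in the fit with group and clone as the only terms. With the block of pairs, 4 genes passed at day 12, Asxl1, Mbd3, E2f1 and Ccne2, beside 2.3% of all probe sets (1034). With the array number within each day as a term, chosen after the data were seen, these passed at day 12 and so did Bptf, Mbd2, Mta1 and Mcm3. That fit called 5.01% of all probe sets. The genes named from each list are its 3 largest estimates on each day.

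PR-DUB removes the ubiquitin mark of PRC1, and 9 of 10 genes of its list were measured, with a median log2 fold change of -0.21 at day 12 against 0.01 over all genes. Asxl1, the cofactor of its catalytic subunit, gave -0.65 at day 12 (limma adjusted p = 0.383, and 0.0387 with the block). Foxk2 and Mbd6 gave -0.30 and -0.35 at day 12, and Asxl3, Foxk1 and Bap1, the catalytic subunit, gave -0.32, 0.29 and 0.18 at day 4. Other complexes that hold Rbbp4 had 21 of 23 genes measured and a median of -0.13 at day 12. Mbd3, of the NuRD remodelling complex, gave -0.63 (limma adjusted p = 0.207, and 0.0286 with the block), while Mbd2, its alternative in that complex, gave 0.52 (0.149, and 0.0792 with the block) and passed with raised low values (0.0378). Chd4, the NuRD remodelling enzyme, gave -0.58, and Smarca1 and Lin37 gave -0.28 and 0.19 at day 4.

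E2F and replication genes had 22 of 23 measured and a median of -0.14 at day 12. E2f1, a transcription factor of S phase entry, gave -0.61 (limma adjusted p = 0.381, and 0.0272 with the block), and Ccne2, a cyclin of S phase entry, gave 0.63 (0.603, and 0.0282 with the block). Rbl2 gave -0.38 at day 12, and Rb1 and Ccna2 gave -0.29 and 0.20 at day 4. The H3K27 demethylases and opposing methyltransferases had 11 of 12 measured, a median of -0.05 at day 12 and 0 calls with the block as well. Kdm6b, a demethylase of that mark, gave 0.42, and the methyltransferases Kmt2b and Kmt2a gave -0.46 and -0.42, while Nsd3 and Kmt2c gave -0.50 and -0.41 at day 4.

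The genes most like the catalytic subunits over the 16 arrays were found by the smallest root mean square difference of centred log2 values. For Ezh2 they were Prmt3, Oxr1 and Chmp7, with differences of 0.09, 0.10 and 0.10 against a median of 0.26 over 3648 candidates. For Ezh1 they were Stag2, Zfp82 and Braf, with 0.14, 0.15 and 0.16 against a median of 0.45 over 5573 candidates. These values share arrays and normalization and are a description. The genes were picked by their values on OHT+ and OHT- arrays together. Their OHT estimates therefore follow in part from that choice, and the tests below are no separate support for Ezh1 or Ezh2. Of the 6, Braf fell at day 12 (-0.68 on the log2 scale, limma adjusted p = 0.0107, and 0.121 from the arrays of that day alone). Stag2 gave -0.57 at day 12 (limma adjusted p = 0.111, and 0.0286 with the block of pairs). Zfp82 gave -0.47 (limma adjusted p = 0.128), and passed in 3 of 25 alternatives, with 1 probe set per gene (0.0421), with raised low values (0.0147) and with the added number term (0.0268). Stag2 passed at day 12 in 5 of 25. At day 4 Braf passed in 3 of 25 and Stag2 in 1 of 25, and the 3 genes like Ezh2 passed in 0 on either day.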

How the data were processed

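The table holds 1 intensity per probe set and array on a linear scale, as the authors deposited it. Per the submitters' processing notes RMA and Affymetrix Expression Console were used, with no setting given, and all 16 columns hold the same sorted values, as after quantile normalization. Values were log2-transformed without offset from the deposited intensities. After 64 AFFX controls were left out, 45037 probe sets were fitted with limma 3.58.1 (R 4.3.3; 4 groups and clone as terms, or clone by group for clone contrasts), with empirical Bayes moderation and Benjamini-Hochberg adjustment over all of them; an adjusted p under 0.05 was called. The script was tested on simulated data. Standard errors of the members at day 12 ran from 0.13 to 0.77, which the number of arrays limits.

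Arrays of the same clone, day and number, as labelled, deviated together in all 8 pairs (r from 0.10 to 0.59 over 22518 probe sets). Arrays of different clones with the same day and number were not compared in this way, so these values do not separate the pair from the number. Named genes were all members, list genes past the threshold or else the 3 largest changes a day, and the 3 genes most like Ezh1 and Ezh2 among brighter genes of similar spread; markers were named beside them. Probe sets were named through GEO's platform annotation, and a gene was represented by its brightest probe set. Members and lists were chosen with earlier results of these data known. The fits were repeated under 9 kinds of alternative chosen with the design and 1 added after the data were seen. Probe sequences were not used here.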

Additional observations from a re-analysis of the deposited data

Results flagged for a closer look

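In 136 groups of 4 arrays, 1 for each member probe set and group, 5 had an array that stood away from the other 3 by more than Dixon's 95% critical share of the group's range, and chance flags about 1 in 20 groups. In OHT- cells at day 4, the clone 15 array numbered 1 read 7175 for Ezh2, above the next array at 5934. In the same group the clone 15 array numbered 2 read 419 on 1420022_s_at of Suz12, below the next at 462, and 10.33 on 1421021_at of Aebp2, below the next at 69.97. In OHT- cells at day 12 the clone 10 array numbered 2 read 4750 on 1418514_at of Mtf2, below the next at 5370. In OHT+ cells at day 12 the clone 15 array numbered 2 read 406.4 on 1456260_at of Rbbp4, above the next at 267.3. Without the Ezh2 array, the day 4 log2 fold change of Ezh2 was -0.08 in place of -0.16.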

How the results depend on the processing

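The count of member probe sets called between OHT+ and OHT- at day 4 was 0 under every alternative run, as were the counts for the difference between the days and for both clone contrasts. At day 12 it was 0 with the replicate block of 8 pairs, with an offset of 16, without the clone term and from the arrays of that day alone, and 0 to 0 on leaving out each array in turn. It was 1 (Ezh1) with 1 probe set per gene, 1 without probe sets below the 25th percentile, 1 with values raised to that percentile and 1 with trended, robust moderation, and 4 with the number within each day as a term, which was added after the data were seen. The fit with the number term called 5.01% of all probe sets at day 12. The replicate block of 8 pairs changed no call of a member, and among the list and similar genes named it called 5 further ones at day 12, Asxl1, Mbd3, E2f1, Ccne2 and Stag2. Between the days the OHT- count was 0 with 1 probe set per gene, a fit that leaves out the Suz12 probe set, and 0 to 1 on leaving out each array. The OHT+ count was 2, 3 and 2 without dim probe sets, with raised values and with trended moderation (Jarid2 1422698_s_at, and with raised values 1422697_s_at too, beside Suz12), and 0 to 1 on leaving out each array. Rybp 1428219_at, 2.95 at day 12, passed with trended moderation (limma adjusted p = 0.0201).

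Counts over all probe sets moved more. At day 4 they went from 109 to 259 with the number term, 272 with raised values, 167 with trended moderation and 14 from that day's arrays, and 62 to 104 on leaving out arrays. At day 12 they went from 546 to 1034 with the replicate block, 2258, 1135, 842 and 155 in the same order, and 261 to 494. OHT- cells between the days went from 181 to 304 without dim probe sets, 686 with raised values and 421 with trended moderation, and 78 to 157. OHT+ cells went from 548 to 984, 1587 and 1212, and 262 to 484. The clone count went from 16 to 35 with raised values, and 3 to 10. Among the fits without 1 array, the lowest counts came without the OHT+ clone 15 array numbered 1 at day 4 (62) and without the OHT+ clone 10 array numbered 1 at day 12 (261). Of 2484 alternative member values 189 changed sign, with neither value past the threshold, and 9 moved by more than a standard error. The cause of these shifts was not tested.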
